A study of Mus musculus with 19 samples.

Results

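Thyroid hormone handling in cultured mouse neural progenitor cells was followed through 6 genes out of 26621 in the deposited count table. They were Dio2 and Dio3, which encode deiodinases, Thra and Thrb, which encode the nuclear receptors for the hormone, Slco1c1, which encodes a membrane transporter of thyroxine, and Klf9, a target gene of the receptors. The genes were taken by name. The genes were selected on measured values: Dio2 was chosen by its difference between genotypes, where the DESeq2 adjusted p was 0.0327 and the edgeR adjusted p was 0.803, which did not pass 0.05. The other 5 were added as its pathway. Genotype differences of the 6 genes are therefore given as a description, with no test. Tests were made on contrasts other than the choosing one: the difference between 2 sets of libraries, the interaction of genotype with library set, and a second assay. The first 2 use the same libraries as the choice, and the second assay used separate ones.

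The thyroid gland releases mostly thyroxine (T4), a prohormone with little activity at the nuclear receptors. In the brain, transporters such as OATP1C1 (Slco1c1) carry hormone across membranes, type 2 deiodinase (Dio2), known there chiefly from astrocytes and tanycytes, converts T4 to active triiodothyronine (T3), and type 3 deiodinase (Dio3) inactivates both. T3 binds the receptors TRα (Thra) and TRβ (Thrb), which sit on DNA with retinoid X receptors and exchange corepressors for coactivators when the hormone is bound. Deiodinases are selenoproteins, and type 2 deiodinase is also controlled by ubiquitination. The B27 supplement of the culture medium lists T3 among its published ingredients.

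The cells came from the cerebral cortex at embryonic day 17.5 and grew on Matrigel in B27 and N2 supplements with bFGF and EGF, each at 20 ng/mL. They were wild type (WT) or had a conditional knockout (cKO) of Mettl8, an RNA methyltransferase that makes 3-methylcytidine (m3C). Neither the Cre line nor the deleted part of Mettl8 is given in the sources used here. RNA-seq libraries (SMART-seq2, from 300 ng of total RNA) came from 6 WT and 6 cKO samples, and HAC-seq libraries, in which hydrazine and aniline break RNA at m3C, came from 4 WT and 3 cKO samples with 8000 ng each. The library names fall into 2 sets, each holding both genotypes: set 1 has WT replicates 1 to 3 and cKO replicates 1 and 2, and set 2 has WT replicates 4 to 6 and cKO replicates 3 to 6. What the sets stand for is not said in the labels. Nor do the labels say whether each replicate was its own culture or animal, and a p-value here reflects the spread over these libraries, part of which may be technical.

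Mettl8 itself went against the genotype labels. Its level was 46.7 ± 10.7 CPM (reads relative to library size, scaled by TMM; SD, n = 6) in the libraries labelled WT, and 72.5 ± 7.96 CPM (SD, n = 6) in those labelled cKO. A count over the whole gene does not check a deletion of one part of it. Genotype is therefore given below as the label has it, and every genotype direction is one between labels. Total counts ran from 15096888 to 18863781 over the 6 WT RNA-seq libraries and from 11830839 to 15766429 over the 6 labelled cKO. The part of depth in the genotype differences was not tested. Xist was read in 10 libraries, and the other 2, labelled cKO replicates 1 and 5, had 0 Xist counts and 10548 and 10363 counts over 4 Y-linked genes. WT replicate 3 had 97 such counts beside 2670 of Xist. The 8 neural progenitor markers summed to between 7052 and 11765 CPM, with all 8 read at over 1 CPM on average, and Fabp7, a radial glia gene, led them.

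The letters around the start sites are shown as background, and no result here is tied to them. The windows run from 250 bases before the start site to 50 bases after it, are those of RefSeq on GRCm38.p6, and are written 5′ to 3′ on the gene's strand. They cover 5 of the 6 genes. Thra has no entry. Dio2 (chr12:90738989-90739288, minus strand) is shown because it is the gene the results turn on. Its capitals mark a full cyclic AMP response element, TGACGTCA, whose first base lies 95 bases before the start site, and a TATA box, TATAAA, 30 bases before it. Thrb (chr14:17660710-17661009, plus strand, the first of its 2 windows) and Klf9 (chr19:23140976-23141275, plus strand) are shown because their levels moved in opposite directions between library sets. Capitals in Thrb mark AGGTCA, the core letters bound by thyroid hormone receptors, and in Klf9 they mark TGACG, which is part of the cyclic AMP response element.
Dio2: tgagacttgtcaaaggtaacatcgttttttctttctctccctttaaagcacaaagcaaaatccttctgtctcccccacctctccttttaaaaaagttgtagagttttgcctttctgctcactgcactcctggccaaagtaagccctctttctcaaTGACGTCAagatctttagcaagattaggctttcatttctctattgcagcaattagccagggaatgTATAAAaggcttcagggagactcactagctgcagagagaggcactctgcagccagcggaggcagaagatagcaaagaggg
Thrb: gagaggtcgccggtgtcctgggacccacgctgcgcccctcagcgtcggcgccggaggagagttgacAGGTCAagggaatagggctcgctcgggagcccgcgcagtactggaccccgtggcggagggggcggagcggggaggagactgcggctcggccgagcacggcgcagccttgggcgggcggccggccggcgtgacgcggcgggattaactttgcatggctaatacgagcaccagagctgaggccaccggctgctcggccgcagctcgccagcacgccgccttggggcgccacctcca
Klf9: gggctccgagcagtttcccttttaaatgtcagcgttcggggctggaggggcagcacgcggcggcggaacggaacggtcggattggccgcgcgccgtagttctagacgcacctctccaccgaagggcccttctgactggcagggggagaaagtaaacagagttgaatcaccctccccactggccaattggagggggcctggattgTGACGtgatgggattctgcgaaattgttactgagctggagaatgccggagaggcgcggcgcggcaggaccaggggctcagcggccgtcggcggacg

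Motifs were searched on both strands in 32851 RefSeq windows of the same length. TGACGTCA was in 1.79% of them, and among the 6 windows of these genes it was in that of Dio2 alone. TATAAA was in 13.6% of all windows and AGGTCA in 16.3%. TGACG, which overlaps the full element at both of its matches in Dio2, was in 20.8%. Thrb has it too, 56 bases before the start, and in Klf9 it lies 46 bases before. A pair of AGGTCA letters in the same direction 4 bases apart, the classical thyroid hormone response element, was in 0.0152% of all windows and in none of these 6. A match is a description of letters, not of binding.

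Dio2 (chromosome 12, 90724552 to 90739038) was read at a high level in every library, and within each library set every library labelled cKO lay below every WT library. In set 1 the WT libraries had 211, 205 and 184 CPM. The libraries labelled cKO in that set had 136 and 162 CPM. In set 2 the WT libraries had 243, 219 and 255 CPM, and the libraries labelled cKO had 165, 100.02, 162 and 199 CPM. WT and cKO thus did not overlap within a set, whereas across sets cKO replicate 6 lay above WT replicate 3. This absence of overlap belongs to the contrast that chose the gene, in which DESeq2 called 0.0153% of 13104 genes and edgeR called 0%, and nothing is read from it.

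The mean level of Dio2 was 220 ± 25.8 CPM (SD, n = 6) in the WT libraries, and in those labelled cKO it was 154 ± 33.1 CPM (SD, n = 6). The log2 fold change, cKO over WT with library set in the fit, was -0.53 (SE 0.11). It was -0.43 in set 1 and -0.61 in set 2. The interaction did not pass (edgeR adjusted p = 0.9999), where edgeR called 0% of all genes. The choice used the same libraries, and a difference that varied between sets would have added to the spread in the choosing fit. Nothing is therefore read from this result. Among the 10 libraries with Xist reads the log2 fold change was -0.52. In bulk samples, fewer cells that express a gene and less RNA per cell cannot be told apart.

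Between library sets the difference of Dio2 was small. Its level was 180 ± 31.2 CPM (SD, n = 5) in set 1 and 192 ± 53.9 CPM (SD, n = 7) in set 2. The log2 fold change, set 2 over set 1, was 0.17 (SE 0.11) and did not pass (edgeR adjusted p = 0.245). It passed under 3 alternatives. Without cKO replicate 4, which had the lowest Dio2 level and the lowest total count, the log2 fold change was 0.25 (edgeR adjusted p = 0.00674). Within WT alone it was also 0.25 (edgeR adjusted p = 0.0362), and with genes of any count in the test it was 0.17 (edgeR adjusted p = 0.0373).

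**Figure D1:**
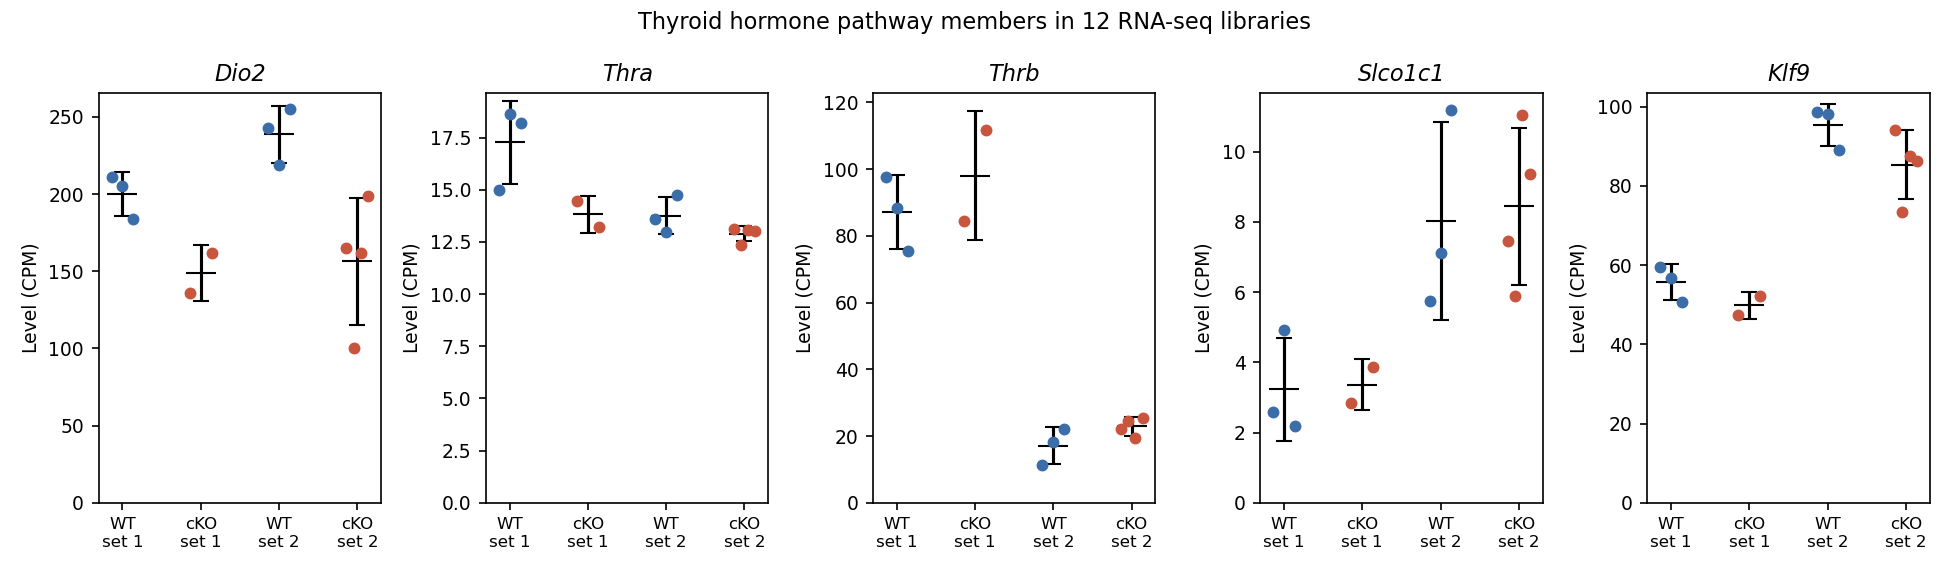
Level in CPM (y axis, linear, from 0) of 5 genes of thyroid hormone handling in each RNA-seq library, by label and library set; points are libraries, and bars give the mean and SD. Dio2, which was chosen by its genotype difference, separates the labels within each set. Thrb falls from 91.5 to 20.4 CPM between sets, and Slco1c1 and Klf9 are higher in set 2.

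HAC-seq gave a reading of Dio2 in 7 other libraries. Coverage counts every read at a C site, cleaved or not. The labels do not say whether the same cultures fed both assays. For Dio2 the deposited table lists 25 C sites on the strand of Dio2, all within the last stretch of the gene, from 166 to 4764 bases before its 3′ end, in a gene spanning 14487 bases. The authors kept only sites with at least 2 read starts in each WT library, so sites read in WT were favoured. Before scaling, the median coverage over all sites was 156 to 218 reads in the WT libraries. It was 115 to 155 reads in those labelled cKO. Scaled coverage, averaged over the 25 sites, was 82.2, 61.9, 119 and 124 reads in WT replicates 1 to 4. In the libraries labelled cKO it was 28.7, 37.4 and 69.1 reads. The lowest WT library lay below the highest library labelled cKO, so the groups overlapped.

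The mean coverage of Dio2 was 96.7 ± 29.8 reads (SD, n = 4) over the WT libraries and 45.1 ± 21.2 reads (SD, n = 3) over those labelled cKO. The log2 fold change, of scaled coverage plus 1, was -1.13, and the WT mean on that scale was 2.18 times that of cKO. The exact two-sided permutation test gave p = 0.0857 (n = 4 and 3), where the smallest p the design allows is 0.0286. With limma over 5879 genes the SE was 0.32 and the adjusted p was 0.356, where limma called 0.034% of the genes. By size, 8 of those genes had a lower log2 fold change than Dio2, which ranked 9 from the lowest. By limma p it ranked 85 of 5879. At an unadjusted limma p under 0.05 there were 327 genes lower and 368 higher. Neither test passed. The sites entered the table through reads in WT libraries alone, and the part of that filter in the difference was not tested.

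Coverage was lower on average in the libraries labelled cKO at 25 of 25 Dio2 sites. The ratio of cKO to WT coverage ran from 0.348 to 0.601, with a median of 0.481. A site read in the libraries labelled cKO but not in WT could not be listed, and neighbouring sites share reads, so this count has no weight of its own. Cleavage itself, the share of reads that start just downstream of the C, was a different quantity. Pooled over the sites, it was 3.49% ± 0.686 (SD, n = 4) for the WT libraries and 2.75% ± 0.532 (SD, n = 3) for those labelled cKO. The difference of -0.744 percentage points gave an exact permutation p of 0.2. The site filter bears on cleavage directly, since it demands read starts in WT libraries only. The authors' deposited p-value was under 0.05 at 3 of the 25 sites. The share over all sites was not counted, so nothing is read from this number. Thra had 8 sites and Klf9 had 3. The log2 fold change of coverage was 0.16 for Thra (exact permutation p = 0.371) and 0.14 for Klf9 (exact permutation p = 0.657). Slco1c1 and Dio3 had no listed site, and 5 sites within Thrb lie on the other strand, where Gm24140 is annotated, so they give no value for Thrb.

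**Figure D2:**
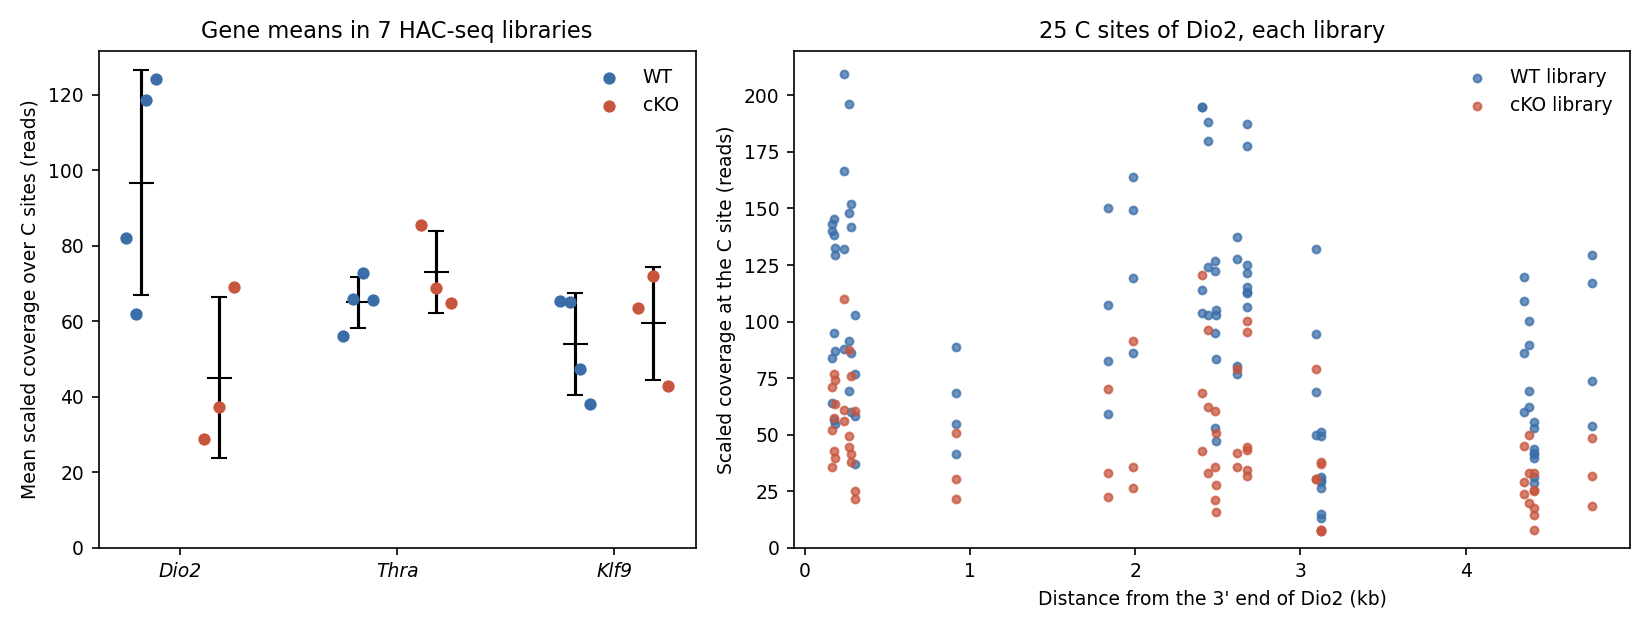
Left, scaled HAC-seq coverage in reads (y axis, from 0), averaged over the C sites of each gene; points are libraries and bars give the mean and SD. Right, scaled coverage at each of the 25 Dio2 sites in each library against the distance from the 3′ end of the gene in kb. WT libraries averaged 96.7 reads for Dio2 against 45.1 for those labelled cKO, and the points of both labels overlap for Thra and Klf9.

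Astrocyte markers moved with Dio2 in part. All 9 markers (Gfap, Aqp4, Aldh1l1, Gja1, Slc1a2, Slc1a3, Sparcl1, S100b and Aldoc) were read at over 1 CPM. All 9 had a log2 fold change below 0 for cKO over WT, with a median of -0.14, against -0.000996 over all genes. Of the 13105 genes tested, 6600 were below 0. Within set 1 the values of the 9 ran from -0.25 for S100b to 0.06 for Aqp4. Within set 2 they ran from -0.97 for S100b to -0.04 for Slc1a2. By edgeR 0 of the 9 were called, where 0% of all genes were, and DESeq2 and limma-voom called 0. At an unadjusted edgeR p under 0.05 there were 2 (22.2%), against 6.14% of all genes. The tilt was not particular to astrocytes. Below 0 were 5 of 6 tested neuron markers (median -0.18), 3 of 3 endothelial (-0.15) and 6 of 8 neural progenitor markers (-0.04). Oligodendrocyte lineage markers divided 3 and 3, and the 1 tested marker each of tanycytes, microglia and pituitary lay above 0. That of pituitary was Gh, at 3.26, with 1.03 CPM on average and counts in 7 libraries. It was called by limma-voom (adjusted p = 0.00628) and not by edgeR (adjusted p = 0.803). In set 1 the 9 astrocyte markers summed to between 10575 and 12439 CPM in WT and between 10126 and 12093 CPM in the libraries labelled cKO. In set 2 the sums were 6508 to 8295 CPM in WT and 5093 to 7741 CPM in the libraries labelled cKO, with the lowest sum in cKO replicate 4, where Dio2 was also lowest. In HAC-seq 7 of the markers had sites, and their summed coverage was 648, 643, 1055 and 939 reads in WT and 644, 599 and 702 reads in the libraries labelled cKO. The part of these markers in the Dio2 difference was not tested. Between library sets edgeR called 8 of the 9 astrocyte markers lower in set 2, where 22.2% of all genes were, and Dio2 had a log2 fold change of 0.17, which was not called.

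Markers of the other cell types known for these genes were also read. The 5 tanycyte markers summed to between 0.132 and 0.856 CPM in set 1 and between 1.95 and 4.35 CPM in set 2. Rax, which defines tanycytes, had 0 counts in all 12 libraries, and Crym averaged 0.157 CPM. Col25a1 averaged 1.14 CPM and rose in set 2 by a log2 fold change of 2.60 (edgeR adjusted p = 1.8e-05), and Fgf10 reached 2.42 CPM. The 6 endothelial markers summed to between 1.70 and 4.60 CPM, with Cldn5 at 0.0201 CPM on average. The part of these cell types in the Dio2 and Slco1c1 values was not tested.

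**Figure D3:**
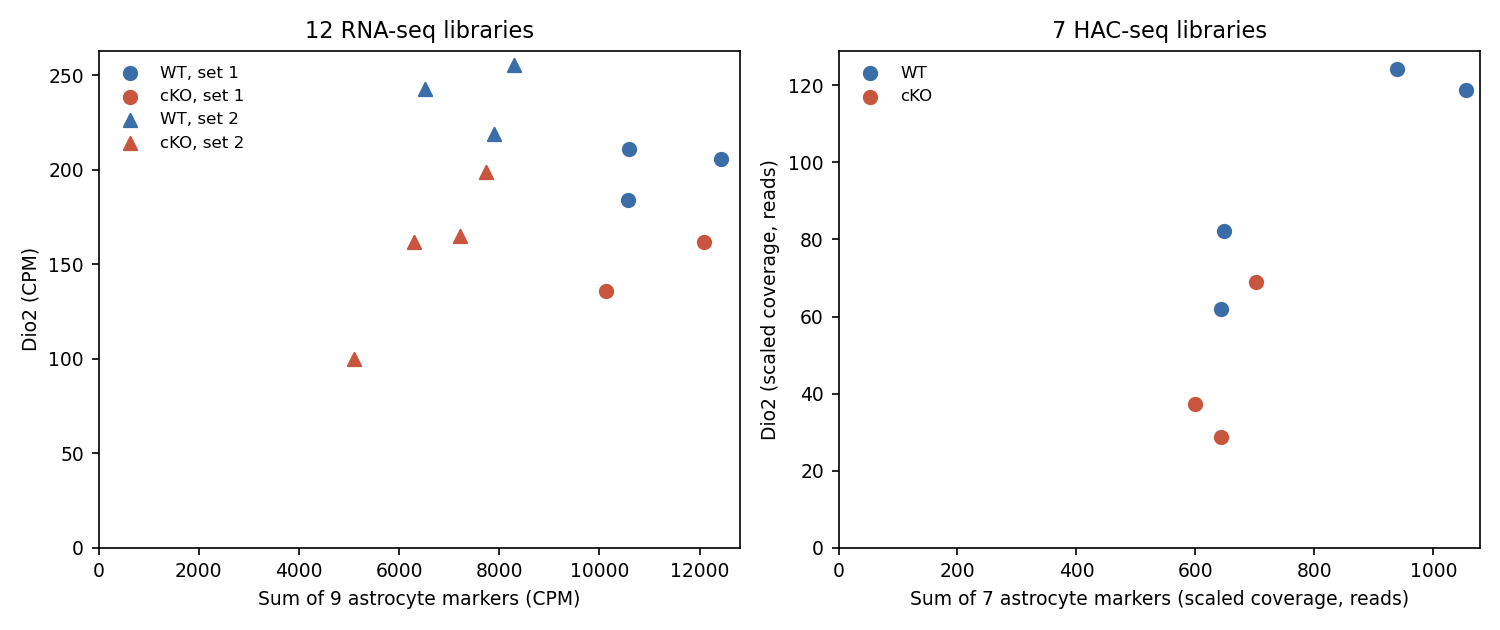
Dio2 against the sum of astrocyte markers, in CPM in 12 RNA-seq libraries (left, 9 markers; circles are set 1, triangles set 2) and in reads of scaled coverage in 7 HAC-seq libraries (right, 7 markers); all axes start at 0. Marker sums are higher in set 1 than in set 2. In RNA-seq Dio2 separates the labels within each set, which belongs to the contrast that chose it. In HAC-seq the labels overlap.

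The inactivating enzyme was not detectable at this depth. Dio3 (chromosome 12, 110279230 to 110281097) had 2 counts in WT replicate 3, equal to 0.132 CPM, and 0 counts in the other 11 libraries. Dio1, the type 1 enzyme of liver and kidney, had 2 counts in cKO replicate 3 and 0 elsewhere. A count of 0 allows up to 3 counts, or 0.159 to 0.249 CPM depending on the library. These limits cover counting error only. Neither gene passed the filter on low counts, so neither was tested. Of the 3 deiodinase genes, Dio2 was thus the single one read beyond this limit.

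Slco1c1 (chromosome 6, 141524354 to 141570177) was read at a low level, and it was higher in set 2. In set 1 the WT libraries had 2.59, 4.91 and 2.18 CPM and the libraries labelled cKO had 2.85 and 3.88 CPM. In set 2 the WT libraries had 5.75, 7.12 and 11.2 CPM, and the libraries labelled cKO had 7.44, 5.89, 11.05 and 9.36 CPM. Every library of set 2 lay above every library of set 1, while the genotypes overlapped in both sets. The mean rose from 3.28 ± 1.10 CPM (SD, n = 5) to 8.26 ± 2.29 CPM (SD, n = 7). That is a log2 fold change of 1.32 (SE 0.23, edgeR adjusted p = 0.000128), and 4.49% of tested genes had a larger one in either direction. For genotype the log2 fold change was 0.07 (SE 0.22). Counts behind these levels were 33 to 185 per library.

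Of the 4 other listed transporters of the hormone, 1 rose in set 2 and 0 fell, where edgeR called 21.5% of all genes higher and 22.2% lower. Slc7a5, the light chain of the LAT1 amino acid transporter, rose by a log2 fold change of 0.47 (edgeR adjusted p = 2.34e-05). Slc3a2, its heavy chain, had a log2 fold change of 0.05, Slc7a8 of 0.24 and Slc16a10 of 0.64, and these did not pass.

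Thrb (chromosome 14, 17659225 to 18040097) had the largest difference between library sets of the 5 tested genes. In set 1 the WT libraries had 97.6, 88.5 and 75.4 CPM and the libraries labelled cKO had 84.4 and 112 CPM. In set 2 the WT libraries had 11.2, 18.2 and 22.1 CPM, and the libraries labelled cKO had 22.1, 24.5, 19.4 and 25.5 CPM. Every library of set 1 lay above every library of set 2. The mean fell from 91.5 ± 13.8 CPM (SD, n = 5) to 20.4 ± 4.82 CPM (SD, n = 7), a log2 fold change of -2.23 (SE 0.13, edgeR adjusted p = 1.29e-10). Set 1 was thus 4.68-fold higher, and 1.27% of tested genes had a larger difference.

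For genotype, the log2 fold change of Thrb was 0.30 (SE 0.13) with library set in the fit and turned to -0.12 without it. The sets hold unequal numbers of each label. The value was 0.17 in set 1 and 0.41 in set 2, and WT and cKO overlapped in both.

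Thra (chromosome 11, 98740776 to 98769006), known as the receptor gene that predominates in the developing brain, varied little. Its mean level here was 15.9 CPM in set 1, against 91.5 for Thrb. For set 2 it was 13.3 CPM, against 20.4 for Thrb. CPM takes no account of transcript length, so levels of different genes compare only roughly. In set 1 the WT libraries had 15.0, 18.7 and 18.2 CPM and the libraries labelled cKO had 14.5 and 13.2 CPM. In set 2 the WT libraries had 13.6, 12.96 and 14.7 CPM, and the libraries labelled cKO had 13.1, 12.4, 13.1 and 13.04 CPM. The 3 WT libraries of set 1 lay above every other library, and the remaining 9 spanned 12.4 to 14.7 CPM. The log2 fold change between sets was -0.22 (SE 0.10), which did not pass (edgeR adjusted p = 0.0809), and that for genotype was -0.19 (SE 0.10). Thra overlaps Nr1d1 on the opposite strand, and no source used here says whether the authors counted by strand, so reads of the pair may be mixed. Among the retinoid X receptor partners, Rxra fell in set 2 by 0.50 on the log2 scale (edgeR adjusted p = 0.0163). Rxrb had a log2 fold change of -0.28 and Rxrg of 0.39, which did not pass.

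Klf9 (chromosome 19, 23141226 to 23168129), a zinc finger transcription factor induced by T3 in the developing brain, was higher in set 2. In set 1 the WT libraries had 59.5, 56.8 and 50.6 CPM and the libraries labelled cKO had 47.5 and 52.1 CPM. In set 2 the WT libraries had 98.6, 98.1 and 89.1 CPM, and the libraries labelled cKO had 94.1, 73.4, 87.5 and 86.4 CPM. The sets did not overlap. The mean rose from 53.3 ± 4.82 CPM (SD, n = 5) to 89.6 ± 8.67 CPM (SD, n = 7), a log2 fold change of 0.78 (SE 0.07, edgeR adjusted p = 6.60e-08), which 12.9% of tested genes exceeded. For genotype it was -0.16 (SE 0.07), and it was -0.16 in each set, where WT and cKO overlapped.

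Relatives of Klf9 in the Klf family, which bind similar GC-rich DNA, were called between the sets in both directions. Klf10 rose by a log2 fold change of 1.68 (edgeR adjusted p = 1.28e-12), Klf6 by 1.33 (edgeR adjusted p = 1.20e-11) and Klf4 by 0.89 (edgeR adjusted p = 0.0088). Klf15, which responds to glucocorticoids, fell by 1.02 on the log2 scale (edgeR adjusted p = 0.000206), and Klf13 fell by 0.35 (edgeR adjusted p = 0.00432). So 5 of 5 passed, 3 higher and 2 lower, where edgeR called 43.8% of all genes, 21.5% higher and 22.2% lower.

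Counted together, 3 of the 5 tested genes changed between library sets, where edgeR called 43.8% of all 13105 tested genes. Slco1c1 and Klf9 were higher in set 2, as were 21.5% of all genes, and Thrb was lower, as were 22.2%. The count of 3 is thus not far from the background share, and nothing is read from it. DESeq2 and limma-voom also called 3. For the interaction of genotype with library set, edgeR called 0 of the 5, as it did 0% of all genes. At an unadjusted p under 0.05 the count was also 0, and DESeq2 and limma-voom called 0.

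The wider pathway was read from lists of 68 other genes, of which 60 passed the filter on low counts. Between library sets 29 of the 60 were called (48.3%), 13 higher and 16 lower in set 2, which is close to the 43.8% of all genes. Their median absolute log2 fold change was 0.24, against 0.27 over all genes. By DESeq2 32 were called and by limma-voom 30. The 8 genes that did not pass the filter were Dio1, Hr, Flywch2, Shh, Ttr, Crym, Alb and Serpina7. All 4 listed hormone binding proteins (Ttr, Crym, Alb and Serpina7) are among them.

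Of 10 other target genes tested, 1 rose and 4 fell in set 2, where edgeR called 21.5% of all genes higher and 22.2% lower. The riser was Aldh1a3, a retinoic acid synthesising enzyme, at a log2 fold change of 1.31. Mbp, which encodes myelin basic protein, fell by 1.84 on the log2 scale, Itih3 by 1.53, the metabolic coactivator gene Ppargc1a by 0.74 and the lipogenic gene Thrsp by 0.45. The edgeR adjusted p of these 5 was at most 0.00108. Klf9 and Aldh1a3 thus rose while these 4 fell. The 8 markers of the oligodendrocyte lineage, the cells that make myelin, summed to 388 to 637 CPM in set 2 and 854 to 1081 CPM in set 1. The part of these cells in the Mbp difference was not tested.

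Receptor cofactors differed modestly between sets. By edgeR 5 of 6 coactivators and 2 of 6 corepressors were called, where 43.8% of all genes were. Among 6 coactivators, Ncoa3 (0.36) and Med1 (0.18) rose in set 2, and Ncoa1 (-0.44), Ep300 (-0.28) and Crebbp (-0.25) fell, as log2 fold changes with an edgeR adjusted p of at most 0.0417. Among 6 corepressors, Hdac3 rose by 0.20 and Ncor1 fell by 0.13 on the log2 scale, with edgeR adjusted p of 0.042 and 0.0351. The remaining 4 did not pass.

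Genes that act on the type 2 deiodinase protein also moved in both directions. Wsb1, the substrate adaptor of a ubiquitin ligase for this enzyme, rose in set 2 by a log2 fold change of 0.24, and the ubiquitin-conjugating enzyme gene Ube2j2 rose by 0.50. Marchf6, a ligase of the endoplasmic reticulum, fell by 0.19 on the log2 scale, and Usp20, which removes ubiquitin from the enzyme, fell by 0.74. Their edgeR adjusted p was at most 0.0215. Of the machinery that inserts selenocysteine, Trnau1ap rose by 0.58 and Secisbp2l fell by 0.41, the other 5 of 7 not passing. Among 13 other selenoprotein genes, Gpx1 (0.24) and Txnrd1 (0.16) rose, Msrb1 (-0.29) and Selenop (-1.08) fell, and 9 did not pass. Selenop encodes the plasma carrier of selenium. The background for each of these lists is the 43.8% of all genes that edgeR called between sets.

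For genotype none of the 60 other genes was called by edgeR, where 0% of all genes were, and DESeq2 and limma-voom also called 0. At an unadjusted p under 0.05 there were 6 (10%), 2 above 0 and 4 below, against 6.14% of all genes. They were Reln, an extracellular guidance protein gene, at a log2 fold change of -1.19 (edgeR adjusted p = 0.803), Dbp at 0.88, Ncoa2 at 0.26, Thrsp at -0.20, Selenow at -0.14 and Selenok at -0.10. Reln and Dbp averaged 1.7 and 0.7 CPM and were thinly read. The median log2 fold change of the 60 genes was 0.01, with 33 above 0 and 27 below. When genes of any count were tested, edgeR called 65 in all, with Mbp among them at -0.73 (edgeR adjusted p = 1.75e-09). With the filter Mbp was at -0.72 and was not called (edgeR adjusted p = 0.806). Its value was 0.005 in set 1 and -1.36 in set 2. The 2 settings gave very unlike p-values elsewhere too: for Thrb between sets the edgeR adjusted p was 9.51e-131 without the filter and 1.29e-10 with it.

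**Figure D4:**
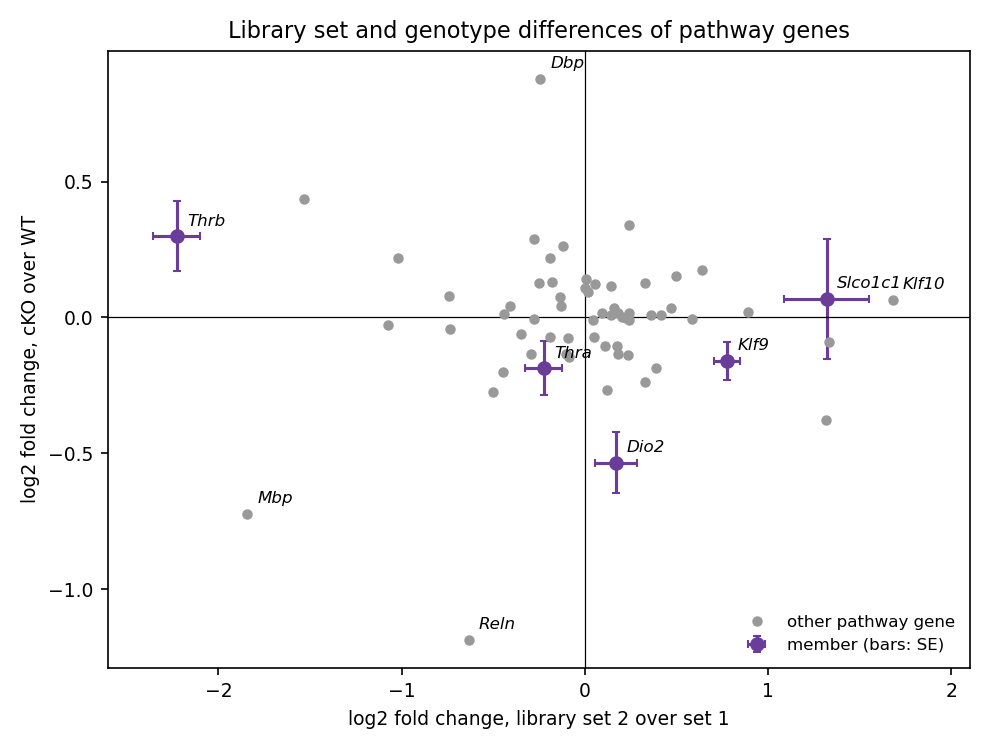
Log2 fold change between library sets (x axis, set 2 over set 1) against that between labels (y axis, cKO over WT) for the tested pathway genes; members carry bars of 1 SE. Thrb, Slco1c1 and Klf9 spread along the x axis, and Dio2 lies at 0.17 on x and -0.53 on y.

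Genes with a pattern most like that of Dio2 were found by Pearson correlation of log2 CPM over the 12 libraries, centred within library set, among 8135 genes with a mean of at least 10 CPM. The 5 highest were Tmem176a (r = 0.954), 1600014C10Rik (0.936), Ppox (0.914), 5730494N06Rik (0.911) and Klhl25 (0.903). The 5 lowest were Snx2 (-0.922), C330027C09Rik (-0.904), Rnf2 (-0.889), Atp6v1h (-0.882) and Usp24 (-0.881). With genotype also removed, Tmem176a had r = 0.974 and Klhl25 had 0.915, while Ppox went to 0.784 and Atp6v1h to -0.693. The points share library depth and preparation, and these values describe the 12 libraries only. Among the pathway genes, r ran from -0.636 for Txnrd1 (-0.704 with genotype removed) upward. Klf9 had r = 0.814 with Dio2 (0.671 with genotype removed) and Marchf6, listed as March6 in the table, had 0.808 (0.824). Over the 9 astrocyte markers r ran from 0.249 for Sparcl1 (0.274) to 0.823 for Aldoc (0.795), with Gja1 at 0.595 (0.652) and Aqp4 at 0.761 (0.905). Thra had 0.502, which went to -0.0108 with genotype removed, and Thrb had -0.393.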

How the data were processed

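RNA-seq and HAC-seq libraries were analysed from the authors' deposited tables. The submitters' processing notes name STAR 2.5.2a, Trimmomatic 0.32 and bcl2fastq 2.17.1.14, and the builds GRCm38 (RNA-seq) and GRCm38.p6 (HAC-seq). No source used here gives the counting program or its annotation. The RNA-seq table holds raw counts per gene as deposited. Low counts were rarely odd (17.4% of counts from 1 to 10, 50.1% from 101 to 1000), so an alternative divided counts by 2. The HAC-seq table gives, per the file headers, read starts and coverage at C sites (deposited signal values), their quotient as a deposited fraction, and a p-value by the authors.

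Counts were tested in R 4.3.3 with edgeR 4.0.16 (filterByExpr, TMM, quasi-likelihood F test, two-sided, on a model of library set plus genotype, Benjamini-Hochberg over 13105 genes, threshold 0.05). DESeq2 1.42.0 and limma 3.58.1 (voom) were alternatives. The SE is that of the log2 fold change. Correlations used a prior count of 2. Of 135582 HAC-seq entries, 118890 sites were distinct and 108558 lay in 1 gene on the same strand. Coverage was averaged over sites per gene, scaled by the median of ratios and tested by exact permutation of 35 divisions of the libraries, and by limma on log2(coverage + 1) for 5879 genes with a mean of at least 10. Read starts and coverage stand behind percentages. Scripts were tested on simulated data. No column was left out (0). Within a label and set, the smallest mean chi-square per gene between libraries was 8.19, so no pair was counted as 1 sample.

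One gene of the lists is not reported here. The members and lists were chosen with earlier results of these data known. Named genes were the 6 members, and from each list at most the 3 largest called changes in each direction, or, where none was called, genes with the smallest p. Thrsp between sets, Slc16a10, other genes of short lists that were not called, and single cell type markers were named after their values were seen.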

Additional observations from a re-analysis of the deposited data

Results flagged for a closer look

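Of 15 groups of member values tested for a sample far from the others, 1 was marked: Dio3 in WT replicate 3, at 0.132 CPM, where the other 5 WT libraries had 0. It rests on 2 counts, under the limit of 3 that a count of 0 allows. Chance marks about 1 in 20 such groups where values are normally distributed. A lone value above 0 among counts of 0 is always marked, so that share does not apply to Dio3.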

How the results depend on the processing

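Members called between library sets numbered 3 to 4 with 1 library left out and 2 to 4 under the other alternatives, and interaction calls stayed at 0. The Dio2 genotype log2 fold change ran from -0.60 to -0.44 with 1 library left out. Other pathway genes called between sets numbered 23 to 30 with 1 library left out, 20 among libraries with Xist reads (an alternative chosen after seeing the data, in which 3 members were called), 15 within WT, 14 within cKO and 7 with a replicate block. For genotype, other pathway genes called were 1 without a filter on low counts. HAC-seq Dio2 ran from -1.48 to -0.86 (exact permutation p 0.0667 to 0.2) with 1 library left out. The remaining libraries allow too few divisions for that test to pass the threshold at all. Those p-values therefore cannot decide whether the difference holds. By read starts the HAC-seq value of Dio2 was -1.43 (exact permutation p = 0.0286). The site filter bears on this value directly, since it demands read starts in WT libraries only. No Dio2 site had coverage of at least 50 in each library (0 sites), so that alternative was not run.

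Same-numbered WT and cKO libraries deviated from their group means with correlations of -0.177 to 0.064, and 0 of 6 correlated best with their own number, so the numbers were not taken as pairs. With the replicate block the Dio2 genotype log2 fold change was -0.53. That of HAC-seq was -0.99 (exact permutation p = 0.25, the smallest p its pairs allow). Set calls of other pathway genes fell to 7. In RNA-seq only replicate 3 has its labels in different sets, WT in set 1 and cKO in set 2. Set values under the replicate block thus rest on that pair, and genotype values under it carry the set difference of that pair. Set differences that turned sign under this block were Rxra (0.0124), Hdac3 (-0.17), Secisbp2l (0.14) and Txnrd1 (-6.58e-05). The genotype value of Klf6 turned under it (0.12), and that of Thrb went to -0.04.

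Other genotype values near 0 also turned: Klf6 (0.12) without the library set term, Slc7a5 among libraries with Xist reads (-0.0244) and without cKO replicate 1 (-0.00972, within a range of -0.00972 to 0.0666 with 1 library left out), Slc3a2 (0.0743), Gps2 (-0.0366), Med1 (-0.0421) and Klf10 (-0.0865) within set 1, Rxrg among libraries with Xist reads (0.0831) and without WT replicate 2 (0.00387, within a range of -0.293 to 0.00387 with 1 library left out), and Med1 without WT replicate 3 (-0.00549) or cKO replicate 3 (-0.013, within a range of -0.013 to 0.0543). The cause of these changes was not tested. Dio3 and Dio1 have too few counts at this depth for any test.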
